A study of Homo sapiens with 26 samples.

Results

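Collagens, laminins and the lysyl oxidases that cross-link collagen and elastin were followed in MCF10A cells treated with epidermal growth factor (EGF), dexamethasone (DEX) or both. The genes were chosen by name, as platform symbols made of COL, LAMA, LAMB or LAMC and a digit, LOX, or LOXL and a digit, with at least 3 probesets that carry this symbol alone. This gave 61 of 18639 genes and 3278 of 354421 probesets. They comprise 43 collagen chains, 11 laminin chains, 5 lysyl oxidases and 2 symbols that match by spelling only, namely COL4A3BP, now CERT1, a ceramide transfer protein, and LAMB2L, now LAMB2P1, a pseudogene of LAMB2.

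MCF10A cells are a human breast epithelial line, established in culture and not tumour-forming. EGF activates the receptor tyrosine kinase EGFR, and DEX is a synthetic glucocorticoid that binds the glucocorticoid receptor (GR). After growth in medium that held EGF and hydrocortisone, the cells were starved overnight and then left untreated (2 arrays, 0 min) or given EGF (10 ng per ml), DEX (100 nM) or EGF+DEX, for 20, 40 or 60 min (2 arrays each) or for 120 or 240 min (1 array each). All comparisons with untreated cells use the same 2 untreated arrays, and the labels tell replicates apart by number only, so p-values measure only the spread between these arrays, which may be technical.

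Collagen chains fold as trimers into fibrils, networks or shorter linking molecules, and laminins are trimers of an α, a β and a γ chain that build the basement membrane on which epithelial cells rest. Mammary epithelium with basal features binds laminin through integrins and anchors itself through hemidesmosomes, which contain COL17A1 and are tied to the stroma by anchoring fibrils of COL7A1. Lysyl oxidases are secreted copper enzymes that oxidize lysines of collagen and elastin, the first step of the cross-links that stiffen the matrix.

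The values are log2 intensities of the Affymetrix GeneChip Human Exon 1.0 ST array, which reads each exon with small groups of probes called probesets. A probeset was kept if its mean exceeded the median of the probesets with no gene symbol (4.65), and gene values were made from the kept probesets by median polish. On the 26 arrays 61.1% to 62.7% of all probesets exceeded this background. Of the 61 genes, 59 had at least 3 kept probesets and are called measured, beside 16600 genes in all. COL10A1, a chain of growth plate cartilage, kept 2 of 10 probesets and LOXL2 kept 2 of 3. A further 27 probesets name LOXL2 together with another gene and were left out, so its RNA was not judged here. The treatments could be read from their known targets. EGF raised 4 of 4 immediate early genes (EGR1, EGR3, FOS and FOSL1), and DEX raised 3 of 4 GR targets (TSC22D3, FKBP5 and SGK1). The basal epithelial markers KRT5 and KRT14 were bright (13.00 and 10.61), and the 9 measured basal markers had a median of 10.17. The 10 measured fibroblast and mesenchymal markers had a median of 5.93 and ran from 5.31 (POSTN) to 8.01 (DCN) and 10.67 (VIM, the intermediate filament vimentin).

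The genes ranged widely in brightness, which depends on the probes as well as on the RNA and does not order genes by abundance. Nearly all probesets of the laminin chains of epithelia were kept, with 99 of 99 probesets for LAMA5, 34 of 34 for LAMB3, 36 of 36 for LAMC1, 43 of 43 for LAMB2, 47 of 49 for LAMB1 and 100 of 102 for LAMA3. In contrast, 34 of the 59 measured genes had a mean under 6.5, and only 18 exceeded the median of all genes (6.74). A mean over 8 was read for 8 genes, LAMB1, LAMB3, LAMC1, COL12A1, LOX, LAMB2, LAMA5 and COL17A1.

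Promoter sequences are shown for the genes whose transcripts are described most closely here, LOX, LAMA3 and LAMB3. Each run holds the 250 bases before a transcript start of the RefSeq annotation of GRCh38.p14, read 5′ to 3′ on the strand of the gene. LOX lies at chr5:122078260-122078509 on the minus strand, LAMA3 at chr18:23872770-23873019 on the plus strand and LAMB3 at chr1:209651375-209651624 on the minus strand. The LAMA3 start lies 183567 bases into the gene. LAMB3 and LOX each have 3 such windows. The one shown for LAMB3 starts its transcript 1051 bases into the gene and was picked for its heptamer after the search, whereas the window at the start of the gene held neither motif and that of the start 96 bases further held 1 hexamer. The one shown for LOX is that at the start of the gene, and its other windows held neither motif. Capitals mark the hexamer AGAACA or its reverse TGTTCT, which forms part of GR binding elements, and the heptamer TGACTCA or its reverse TGAGTCA, which AP-1 factors such as FOS bind. The motifs do not overlap each other.
LOX: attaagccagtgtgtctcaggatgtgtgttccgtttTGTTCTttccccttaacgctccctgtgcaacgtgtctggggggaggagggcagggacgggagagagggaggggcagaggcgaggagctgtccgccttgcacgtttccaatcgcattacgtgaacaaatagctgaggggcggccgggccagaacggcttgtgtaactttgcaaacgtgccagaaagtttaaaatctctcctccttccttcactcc
LAMA3: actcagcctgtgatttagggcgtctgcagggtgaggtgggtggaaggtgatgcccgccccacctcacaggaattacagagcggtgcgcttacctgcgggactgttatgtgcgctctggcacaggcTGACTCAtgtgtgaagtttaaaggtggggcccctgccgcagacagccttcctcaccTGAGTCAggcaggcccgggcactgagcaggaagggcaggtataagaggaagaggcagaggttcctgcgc
LAMB3: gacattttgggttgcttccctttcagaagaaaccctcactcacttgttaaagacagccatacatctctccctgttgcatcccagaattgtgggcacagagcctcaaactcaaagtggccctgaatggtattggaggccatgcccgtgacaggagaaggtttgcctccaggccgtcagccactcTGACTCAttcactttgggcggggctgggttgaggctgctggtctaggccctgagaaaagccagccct
The LOX run holds 1 hexamer, the LAMA3 run holds 2 heptamers and the LAMB3 run holds 1 heptamer. Windows were given for 45 of the 61 genes. A hexamer on either strand stood in the windows of 4 of these 45 genes (8.89%: COL5A1, COL9A1, LAMB3 and LOX) against 14.8% of 27305 genes, and a heptamer in 2 of 45 (4.44%: LAMA3 and LAMB3) against 5.19%. The windows of LAMB1 and LAMA5 held neither motif. A match describes the letters and does not show a binding site.

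LOX, the founding lysyl oxidase, moved most. Both untreated arrays read 8.75 and 8.78. With EGF, 8 arrays ran from 8.14 through a median of 8.47 to 8.69, all below the untreated pair. With DEX, LOX read 8.80 and 8.48 at 20 min, 9.02 and 8.93 at 40 min, 9.12 and 9.08 at 60 min, 9.87 at 120 min and 10.13 at 240 min. From 40 min on, every DEX array thus exceeded every untreated and EGF array. With EGF+DEX it read 8.66 and 8.41 at 20 min, 9.01 and 8.64 at 40 min, 8.93 and 8.49 at 60 min, 9.60 at 120 min and 9.57 at 240 min. The 4 late arrays with DEX, alone or with EGF, read 9.57 to 10.13, and the other 22 arrays did not exceed 9.12. LOX was the only one of the 59 genes whose 4 late DEX arrays exceeded all others, as was true of 0.56% of all genes, and no member had all 4 below the others (0.729% of all genes). For the other separations of arrays given here and below, the share of all genes was not counted. In such bulk RNA, more cells that express a gene and more RNA per cell cannot be told apart, nor can fewer cells and less RNA per cell.

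In a limma model of all genes, a gene was called where the adjusted p was under 0.05 and the largest difference at least 1.5-fold. EGF did not pass for LOX (mean of 5 times -0.30 ± 0.14 SE on the log2 scale, adjusted p = 0.676). DEX raised it (mean 0.58 ± 0.14; largest 1.36 at 240 min; adjusted p = 0.00108), and EGF+DEX raised it as well (largest 0.83 at 120 min, adjusted p = 0.0104). The latter call was lost without the EGF+DEX array of 240 min (adjusted p = 0.0635), and neither was made from the times to 60 min alone. Against EGF, EGF+DEX gave LOX 0.58 ± 0.09 more over the 5 times (adjusted p = 7.34e-04), just under the fold minimum. This difference was -0.05 at 20 min and 1.07 and 1.11 at 120 and 240 min, each between 2 single arrays, so that limma's adjusted p (0.0416 and 0.0301) takes its spread from the other groups alone. LOX was 0.30 ± 0.09 lower with EGF+DEX than with DEX (adjusted p = 0.086), which did not pass. The reading was shared along the transcript, as 11 of its 12 probesets were higher late with DEX than in untreated cells, with a median of 1.25.

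**Figure D1:**
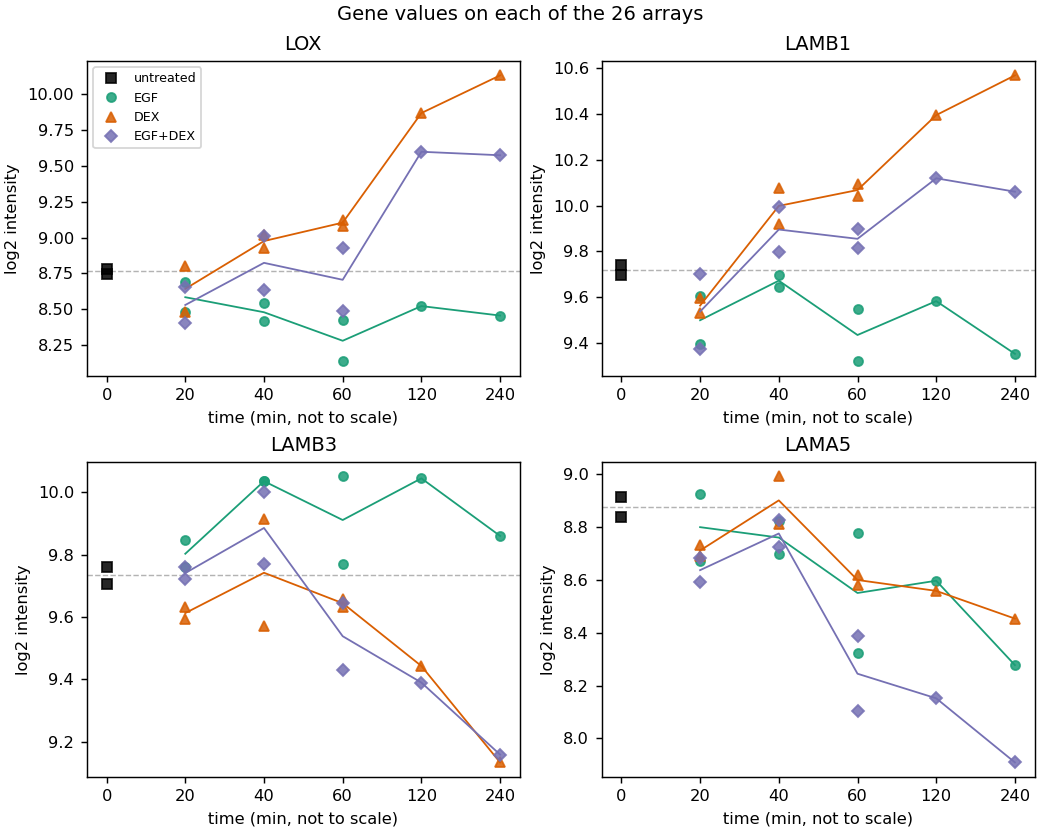
Log2 intensity (y axis) of LOX, LAMB1, LAMB3 and LAMA5 on each of the 26 arrays against time in min (x axis, not to scale); each point is 1 array, lines join the means of a treatment and the dashed line is the mean of the 2 untreated arrays. LOX rises to 10.13 and LAMB1 to 10.57 with DEX at 240 min, LAMB3 is lowest at 240 min with DEX (9.13) and EGF+DEX (9.16), and LAMA5 is lowest with EGF+DEX (7.91).

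The other lysyl oxidases, relatives of LOX with the same catalytic domain, did not pass in any comparison of gene values. LOXL1, which acts in elastic fibres, read 6.81 to 7.34 over the 24 treated arrays beside 7.13 and 6.95 untreated. LOXL3 read 5.93 to 6.43 and LOXL4 5.53 to 6.34 over the same arrays. Their means over the 5 times of DEX were -0.05 ± 0.12, 0.18 ± 0.10 and 0.09 ± 0.14, and the treated arrays of each spanned the untreated pair.

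Among laminins, DEX raised the β chain LAMB1, while the β chain LAMB3 was lower with EGF+DEX than with EGF. LAMB1, the β chain of widespread laminins, read 9.70 and 9.74 untreated. With EGF its 8 arrays lay between 9.32 and 9.70, with a median of 9.57. With DEX it read 9.60 and 9.53 at 20 min, 9.92 and 10.08 at 40 min, 10.09 and 10.04 at 60 min, 10.39 at 120 min and 10.57 at 240 min. With EGF+DEX the 20 min arrays read 9.70 and 9.37, of which the higher lay just above the highest EGF array. Those of 120 and 240 min (10.12 and 10.06) lay above all EGF arrays, and how many of all genes do so was not counted. DEX raised LAMB1 (mean 0.40 ± 0.11; largest 0.85 at 240 min; limma adjusted p = 0.00539). Addition of DEX to EGF also gave a higher value than EGF (0.38 ± 0.07, adjusted p = 0.00284), below the fold minimum, and 47 of 47 probesets had this sign. EGF+DEX against untreated cells gave a mean of 0.17 ± 0.11 (adjusted p = 0.143) and no call.

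LAMB3 is the β chain of the laminin that sits under hemidesmosomes. It read 9.71 and 9.76 untreated and 9.76 to 10.05 with EGF, with a median of 9.95, and no EGF array lay below both untreated arrays. With DEX it read 9.59 and 9.63 at 20 min, 9.57 and 9.91 at 40 min, 9.63 and 9.66 at 60 min, 9.44 at 120 min and 9.13 at 240 min. EGF+DEX gave 9.76 and 9.72, 10.00 and 9.77, 9.65 and 9.43, 9.39 and 9.16 at these times. The late arrays with DEX thus lay below all untreated and EGF arrays. They did not lie below all other arrays, as 1 EGF+DEX array of 60 min read 9.43. The share of all genes that separate from the untreated and EGF arrays in this way was not counted. LAMB3 was 0.39 ± 0.07 lower with EGF+DEX than with EGF (limma adjusted p = 0.0031), below the fold minimum, and 33 of 34 probesets had this sign. At 120 and 240 min the difference was -0.65 ± 0.19 and -0.70 ± 0.19, again between single arrays, with adjusted p = 0.145 and 0.123. Against untreated cells neither EGF (0.20 ± 0.11, adjusted p = 0.735) nor DEX (-0.22 ± 0.11, adjusted p = 0.204) nor EGF+DEX (-0.19 ± 0.11, adjusted p = 0.0739) passed.

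LAMA5, the α chain found in most adult basement membranes, was lowest with both agents. Untreated arrays read 8.84 and 8.91. The 8 arrays each of EGF (8.28, 8.69 and 8.93 as lowest, median and highest) and DEX (8.45, 8.65 and 8.99) reached the untreated values, and neither EGF (mean -0.28 ± 0.12, adjusted p = 0.446) nor DEX (-0.23 ± 0.12, adjusted p = 0.385) passed. With EGF+DEX LAMA5 read 8.68 and 8.59 at 20 min, 8.72 and 8.83 at 40 min, 8.39 and 8.10 at 60 min, 8.15 at 120 min and 7.91 at 240 min, below both untreated arrays throughout. EGF+DEX lowered LAMA5 (mean -0.53 ± 0.12; largest -0.97 at 240 min; limma adjusted p = 0.00877). It was lower with EGF+DEX than with EGF (-0.25 ± 0.08, adjusted p = 0.0341) and than with DEX (-0.30 ± 0.08, adjusted p = 0.0464), both under the fold minimum. Of its 99 probesets, 85 had a negative EGF+DEX minus EGF difference. The difference from DEX passed the adjusted p in 15 of 36 alternative analyses and the difference from EGF in 24 of 36.

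The partner chains moved less. LAMC1, the γ chain that pairs with LAMB1 and LAMB2, read 9.77 and 9.78 untreated and 9.34 to 9.83 otherwise, with no call. LAMB2, the β chain of neuromuscular and kidney laminins, had the largest mean difference of all members with EGF (-0.35 ± 0.13, limma adjusted p = 0.424) and with EGF+DEX against DEX (-0.32 ± 0.09, adjusted p = 0.0565), but passed neither. LAMC3 was higher with EGF+DEX than with EGF (0.19 ± 0.06, adjusted p = 0.0401). The α chains LAMA1, LAMA2 and LAMA4 and the β chain LAMB4, all with means between 5.54 and 5.89, passed in no comparison.

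LAMA3, the α chain of the hemidesmosomal laminin, is known for long and short transcripts with separate start sites. As a single gene value it read 7.52 to 8.13 over the 26 arrays and passed no comparison of gene values. Its probesets did not move together. In the test of exon use, which asks whether the probesets of a gene differ in their EGF+DEX minus EGF difference, LAMA3 had adjusted p = 5.68e-09 (limma diffSplice), with 1 probeset that departed from the rest by 1.11. When its 100 kept probesets were put in the order of their probeset numbers, the first 50 had a median brightness of 6.87 and the last 50 of 10.29. With EGF+DEX against EGF the first 50 had a median difference of -0.10, 30 of them negative, and the last 50 a median of 0.32, 49 of them positive. This division was chosen after the values were seen and was not tested. Genome positions of the probesets were not used here, so the division was not tied to exons or to either transcript.

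Summarised apart, the last 50 LAMA3 probesets read 10.06 and 9.93 untreated. They ran from 9.97 through a median of 10.23 to 10.38 with EGF, from 10.15 through 10.27 to 10.42 with DEX and from 10.15 through 10.45 to 10.76 with EGF+DEX. Every DEX and EGF+DEX array was thus above the untreated pair, and the highest array was that of EGF+DEX at 240 min. For the first 50 probesets the untreated arrays read 7.22 and 7.21. The medians were 6.96 with EGF, 6.89 with DEX and 6.82 with EGF+DEX, and 1 treated array with DEX (7.33 at 40 min) exceeded the untreated pair. The difference between both sets of probesets, 0.41, was the largest of the 49 members with at least 20 kept probesets and ranked 36 among 4607 such genes. Every gene was cut at its midpoint, a cut chosen after the LAMA3 values were seen, so the rank does not test it.

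**Figure D2:**
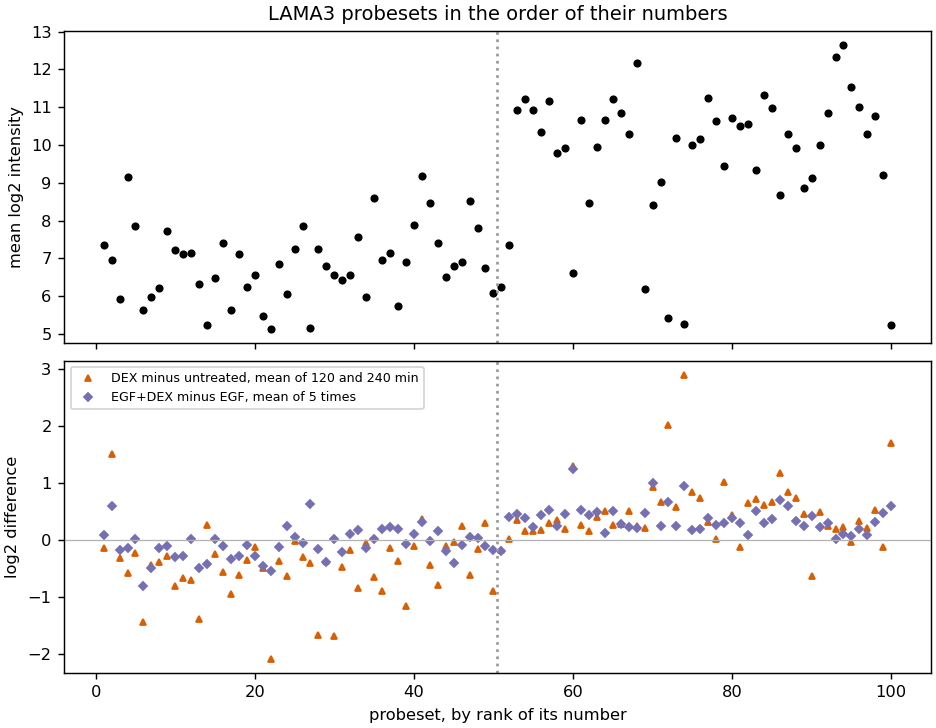
Mean log2 intensity over the 26 arrays (upper panel) and log2 differences (lower panel; triangles, DEX minus untreated at 120 and 240 min; diamonds, EGF+DEX minus EGF over 5 times) of the 100 LAMA3 probesets in the order of their numbers (x axis), with a dotted line after the first 50. Brightness steps up near this line (medians 6.87 and 10.29). The late DEX differences lie mostly below 0 before the line (45 of 50) and above 0 after it (45 of 50). Of the EGF+DEX minus EGF differences, 30 of 50 lie below 0 before the line and 49 of 50 above 0 after it.

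Exon use was called for 7 of the 59 members, where 4.07% of all genes were called, and each of the 7 rested on 1 probeset that departed by at least 1 on the log2 scale. Beside LAMA3 these were COL18A1 (1.31), COL28A1 (-1.07), COL4A6 (-1.05), LAMA5 (-1.03), LOXL1 (-1.22) and LOXL4 (-1.13). COL18A1 is the basement membrane collagen that releases endostatin. A gene with more kept probesets has more that can depart, and the share of all genes was not matched for this number. A stricter background left only LAMA3 and LAMA5. Leaving out single arrays gave 5 to 17 calls, among them 12 without 1 EGF array of 20 min or 1 EGF+DEX array of 20 min, 17 without EGF 60 min replicate 2, and 11 without either array of 240 min.

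Collagen chains were called once. COL28A1, a minor collagen with von Willebrand factor domains, was dim, at 5.30 and 5.47 untreated. It read 5.14 to 5.61 with EGF, 5.47 to 5.73 with DEX up to 60 min, 5.98 and 6.26 with DEX at 120 and 240 min, and 5.59 to 5.92 with EGF+DEX. DEX raised it (mean 0.42 ± 0.11; largest 0.87 at 240 min; limma adjusted p = 0.0364), but the call was lost on leaving out either untreated array, either DEX array of 20 or of 60 min, or the DEX array of 240 min (adjusted p up to 0.327). It lies near the background. COL4A6, a type IV chain of epithelial basement membranes, read 6.81 and 6.85 untreated, 6.66 to 6.96 with DEX, and 6.36 and 6.25 with EGF+DEX at 120 and 240 min. With EGF+DEX its mean was -0.32 ± 0.09, its largest difference was -0.58 and its adjusted p 0.043, a difference just short of the fold minimum that passed the adjusted p in 16 of 36 alternative analyses. It was also lower with EGF+DEX than with EGF (-0.19 ± 0.06, adjusted p = 0.0365) and than with DEX (-0.25 ± 0.06, adjusted p = 0.0285).

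Counted over the 59 members, EGF called 0 (0.729% of all genes; 2 members had an unadjusted p under 0.05). DEX called LOX, LAMB1 and COL28A1, all higher, which is 3 of 59 beside 3.54% of all genes (1.62% higher). EGF+DEX called LOX higher and LAMA5 lower, beside 4.87% of all genes (2.39% higher and 2.48% lower). These shares lie near those of all genes or rest on few members. EGF+DEX called 0 against EGF (0.753% of all genes; 35 members had an unadjusted p under 0.05) and 0 against DEX (0.361%; 10 members unadjusted). These percentages are shares called, and the share of all genes with an unadjusted p under 0.05 is not given here. By adjusted p alone, 6.2% of all genes were higher and 14.1% lower with EGF+DEX than with EGF. Late against early times, averaged over the 3 treatments, called LOX alone (0.831%, of which 0.295% higher), with 0.68 ± 0.08 (limma adjusted p = 3.41e-05). With a block for the replicate number this was 0.58 (adjusted p = 0.000104), just under the fold minimum, and no member was called. With EGF alone this difference was 0.04 ± 0.14 for LOX. The late minus early difference was larger with DEX than with EGF for LOX (by 1.05 ± 0.20, adjusted p = 0.00555) and LAMB1 (by 0.67 ± 0.15, adjusted p = 0.0231).

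**Figure D3:**
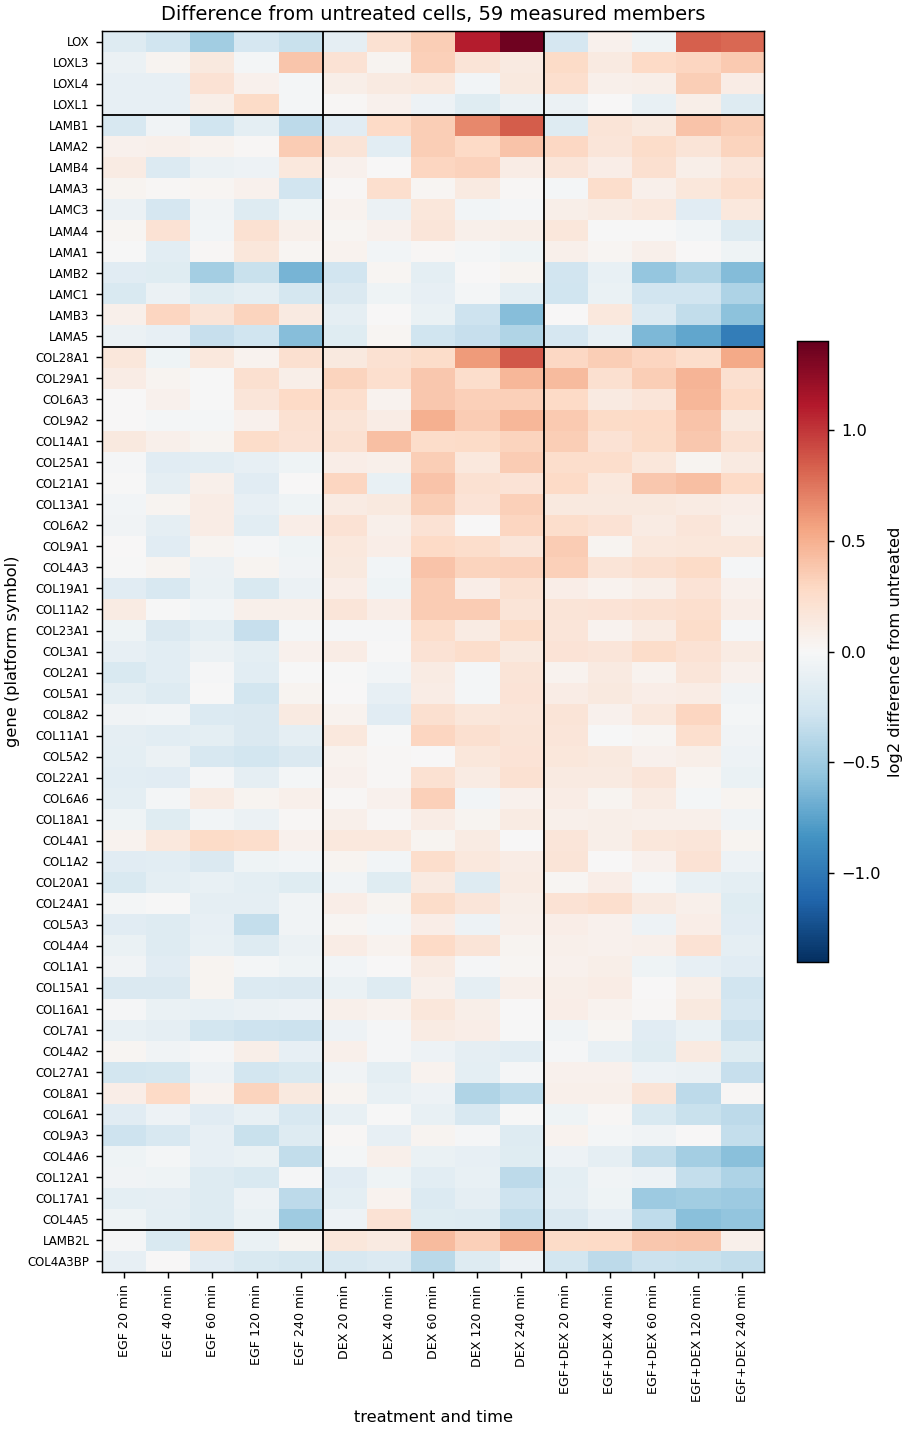
Log2 difference from the mean of the 2 untreated arrays (colour) for the 59 measured genes (rows, by platform symbol; lysyl oxidases, laminins, collagens and the 2 symbols that are neither, divided by lines) at each treatment and time (columns). LOX is darkest red with DEX at 240 min (1.36), and LAMA5 darkest blue with EGF+DEX at 240 min (-0.97).

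The more widespread pattern was a small one. With EGF+DEX against EGF, 44 of 59 members were higher, with a median of 0.16 beside -0.05 over all genes. Without a fold minimum, 16 members passed the adjusted p as higher, where 6.2% of all genes did, and 3 as lower (LAMB3, LAMA5 and COL4A6), where 14.1% did. The 16 were LOX, LAMB1, LAMC3, LAMB2L and 12 collagen chains, with differences from 0.18 to 0.58. The median residual standard deviation was 0.120 for members and 0.155 for all genes. Without a fold minimum, a small difference thus passes more readily among members, and the shares were not matched for this. By class, 5 of 11 fibrillar chains passed as higher (COL1A2, COL2A1, COL3A1, COL5A2 and COL11A1), and all 11 had a difference above 0, with a median of 0.18. So did 3 of 10 fibril-associated chains (COL9A2, COL19A1 and COL21A1), 2 of 7 chains of the type VI, VII and XXVIII group (COL6A2 and COL28A1) and 2 of 4 transmembrane chains (COL23A1 and COL25A1). None of the 8 network-forming chains was among them. Against DEX, only COL4A6 and LAMA5 passed the adjusted p alone, both as lower, where 1.17% of all genes did. Late against early times, 3 members passed it as higher (LOX, LAMB1 and COL28A1, beside 3.49%) and 3 as lower (LAMA5, LAMB3 and COL4A6, beside 4.22%). The largest after LOX were LAMA5 (-0.34 ± 0.07, limma adjusted p = 0.00524) and LAMB1 (0.29 ± 0.06, adjusted p = 0.00796).

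COL3A1, a fibrillar chain of soft connective tissue, illustrates the size. Its 8 EGF arrays ran from 5.57 through 5.69 to 5.92, and its 8 EGF+DEX arrays from 5.94 through 6.03 to 6.09. The groups did not overlap, and the difference was 0.27 ± 0.06 (limma adjusted p = 0.011). COL5A2, which joins type V collagen in the core of fibrils, did not overlap either (5.95 to 6.17 and 6.18 to 6.46; 0.26 ± 0.06, adjusted p = 0.0123). Both genes were picked after their values were seen, and the share of all genes that separate in this way was not counted. Both are also dim, as 36 of 66 probesets exceeded the background for COL3A1 and 38 of 66 for COL5A2. COL9A2, a cartilage chain, overlapped (6.45 to 6.78 and 6.70 to 7.01; 0.25 ± 0.06, adjusted p = 0.016), as did COL21A1 (0.34 ± 0.10, adjusted p = 0.0261). The untreated arrays of COL3A1 read 5.78 and 5.87, below all EGF+DEX arrays and inside the EGF range, and its means against them were -0.08 ± 0.10 with EGF and 0.19 ± 0.10 with EGF+DEX, with no call.

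Brightness moved with this pattern. Among all genes, the median EGF+DEX minus EGF difference was 0.08 and 0.05 in the 2 dimmest of 5 equal bins of brightness and -0.09, -0.14 and -0.11 in the other 3, and 12 and 20 of the 59 members fall in the 2 dimmest. In these bins the member medians were 0.21 and 0.16, and 4 of 12 and 7 of 20 members passed as higher, beside 8.64% and 10.2% of all genes there. When the brightness trend of each array was removed, which was chosen after the data were seen, 8 of the 16 stayed higher (LOX, LAMB1, COL2A1, COL3A1, COL5A2, COL6A2, COL9A2 and COL23A1), and 8 did so when dim probesets were kept. Leaving out single arrays kept 8 to 16 of them. COL3A1, COL5A2, COL9A2, LAMB1 and LOX passed in all 26 such fits. Of the 3 lower members 1 to 3 were kept, LAMA5 in 16 of the 26 fits and COL4A6 in 15.

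**Figure D4:**
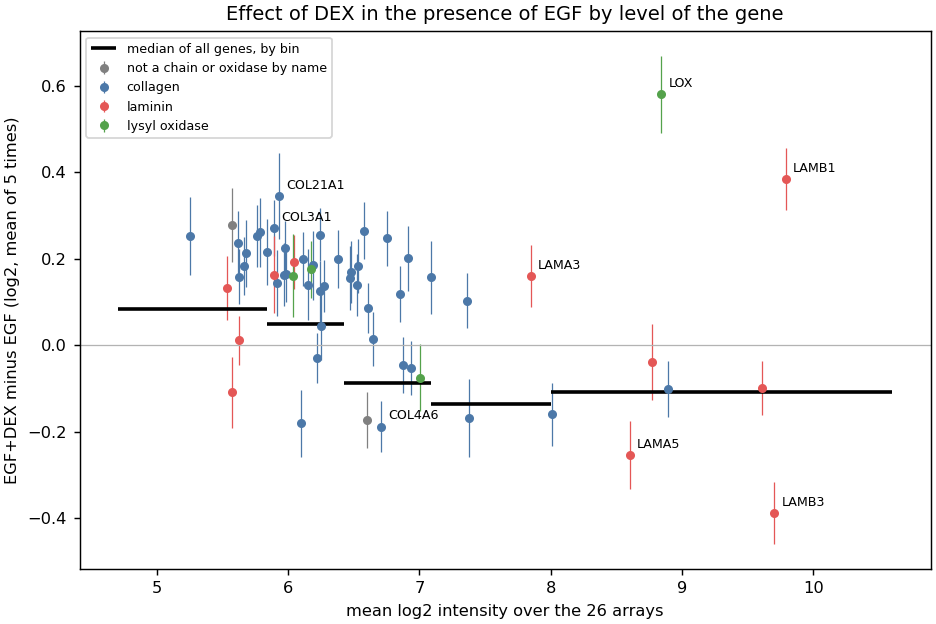
EGF+DEX minus EGF difference (y axis, log2, mean of 5 times; bars are 1 SE) of the 59 members against their mean log2 intensity over the 26 arrays (x axis), coloured by family. Black lines give the median of all genes in each of 5 equal bins of brightness, from 0.08 in the dimmest to -0.11 in the brightest, whose line ends before the brightest genes; most dim collagens lie above these lines, LOX and LAMB1 stand highest among bright members and LAMB3 lowest.

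Apart from LAMB3 and COL4A6, the members found in hemidesmosomes and in the type IV network passed in no comparison of gene values. COL17A1, the hemidesmosomal collagen, read 8.21 and 8.17 untreated, 7.83 to 8.19 with EGF, 7.90 to 8.30 with DEX and 7.52 to 8.20 with EGF+DEX (mean -0.34 ± 0.11, limma adjusted p = 0.0706). COL7A1, the collagen of anchoring fibrils, read 7.13 to 7.62 over all arrays, and its mean with EGF was -0.22 ± 0.10 (adjusted p = 0.7). COL4A1 and COL4A2, the chains of the common type IV trimer, read 6.01 to 6.38 and 6.75 to 7.10, with means of at most 0.15 in size against untreated cells in every treatment. COL4A5, the partner of COL4A6, had a mean of -0.36 ± 0.14 with EGF+DEX (adjusted p = 0.269). The spelling matches did not pass the fold minimum: LAMB2L was 0.28 ± 0.08 higher with EGF+DEX than with EGF (adjusted p = 0.0314), and COL4A3BP 0.17 ± 0.06 lower (adjusted p = 0.0644).

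Other matrix genes were counted from lists made with earlier results of these data known. With DEX, 2 of 22 genes of collagen processing were higher, LEPREL1 (now P3H2), a prolyl 3-hydroxylase (largest 0.77 at 120 min, limma adjusted p = 0.026), and TLL1, a procollagen proteinase (0.65 at 240 min, adjusted p = 0.0271), beside 1.62% of all genes called higher with DEX. Of 16 partners of basement membranes and elastic fibres 1 was higher, FBLN5, a fibulin of elastic fibres (1.08 at 240 min, adjusted p = 0.0185). Of 15 collagen and laminin receptors, ITGA10 was higher (1.60 at 240 min, adjusted p = 2.22e-04) and ITGA2 lower (-1.27 at 240 min, adjusted p = 0.00107), both α subunits of collagen-binding integrins. In either direction, DEX called 3.54% of all genes. EGF called 0 genes of each of these 3 lists (0.729% of all genes), of which 0, 1 and 3 had an unadjusted p under 0.05. The share of all genes at that unadjusted cutoff is not given here. With EGF+DEX (2.39% of all genes higher and 2.48% lower), LEPREL1, FBLN5 and ITGA10 were again higher, while DST, the hemidesmosomal linker dystonin, and DDR1, a collagen receptor kinase, were lower (-0.61 at 120 min and -0.81 at 240 min, adjusted p = 0.0298 and 0.0357). ITGA10 alone was called against EGF (0.75 ± 0.08, adjusted p = 1.02e-05), beside 0.753% of all genes.

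Single markers of cell types were called in some of these comparisons. Of 9 basal epithelial markers, DEX lowered TP63 (-1.28 at 240 min, limma adjusted p = 0.00142), and EGF+DEX lowered TP63, KRT14 and KRT17. Among all genes, 3.54% were called in either direction with DEX, and 2.48% were called lower with EGF+DEX. The summed level of the 9 was 14.31 and 14.38 in untreated cells, 14.14 and 14.17 late with DEX and 14.00 and 14.06 late with EGF+DEX, where LAMA5 was lowest. Of 10 fibroblast markers, DEX raised DCN and FAP and EGF+DEX raised FAP, beside 1.62% and 2.39% of all genes called higher. Their summed level was 11.35 and 11.36 untreated, 11.29 and 11.49 late with DEX and 11.13 and 11.25 late with EGF+DEX. Late with EGF+DEX, where LOX was high, the sum thus lay below the untreated pair. VIM (10.67 on average) and DCN (8.01) were the brightest of the 10. The 8 measured luminal markers summed to 11.04 and 11.10 untreated, 11.02 and 11.10 late with DEX and 10.87 and 10.94 late with EGF+DEX. For the 9 measured endothelial and leukocyte markers the sums were 9.15 and 9.19, 9.20 and 9.28, and 9.08 and 9.41. Whether these markers had a part in the results was not tested.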

How the data were processed

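RNA of MCF10A cells was labelled with biotin and hybridized to 26 exon arrays (Human Exon 1.0 ST). The authors deposited linear intensity values for 844005 probesets (from 1 to 19500), made with the Affymetrix Expression Console. Its summary method is not given in the sources used here, nor is its background correction. Intensities were log2-transformed and not normalized again, as the array quartiles differed by at most 0.0971. Probesets with several symbols (14891) or none (474693) were left out of gene values, and 262233 with 1 symbol exceeded the background. The number of arrays limits the precision.

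Gene values (Tukey's median polish, at least 3 probesets) entered a limma model with a mean for each of 16 groups and 10 residual degrees of freedom. The 6 lone arrays were assumed to vary like the others. EGF, DEX and EGF+DEX were tested against untreated cells with moderated F-tests over 5 times, and the other comparisons with moderated contrasts of means over times. P values were adjusted over all 16600 genes by the Benjamini-Hochberg procedure. A mean is given with its standard error (SE). The procedure was tested on simulated data. R 4.3.3, limma 3.58.1, data.table (1.17.8), matrixStats 1.5.0, Python 3.11.15, pandas 2.3.3 and matplotlib 3.10.9 were used.

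The members and lists were chosen with earlier results of these data known. Named are the members called in any comparison, the epithelial basement membrane chains and lysyl oxidases, the 3 members with the largest difference per comparison, the 2 symbols that match by spelling only, and called genes of the other lists. COL3A1, COL5A2, COL9A2 and the other collagens named for EGF+DEX against EGF without a fold minimum were named after their values were seen. Alternatives were other brightness filters, quantile normalization, the mean of probesets, limma's trend and robust options, other fold minimums, a replicate block, fewer times and each array left out in turn.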

Additional observations from a re-analysis of the deposited data

Results flagged for a closer look

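For LOX and LAMB1 the difference between late (120 and 240 min) and early times (20 to 60 min) was not the same with DEX as with EGF, by a test of the difference itself in the limma model of all genes. LOX was 1.09 ± 0.14 higher late than early with DEX and 0.04 ± 0.14 with EGF, which differ by 1.05 ± 0.20 (adjusted p = 0.00555). LAMB1 was 0.60 ± 0.11 higher with DEX and -0.07 ± 0.11 with EGF, which differ by 0.67 ± 0.15 (adjusted p = 0.0231). The test called 474 of 16600 genes. All late values rest on single arrays. With 2 arrays a group at most, single arrays that stand apart within a group could not be looked for.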

How the results depend on the processing

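Where 1.5-fold was required, 0 members were called for EGF+DEX against EGF. This became 1 (LOX) with quantile normalization and with the brightness trend removed, which was chosen after seeing the data. Without a fold minimum the calls were 19 for EGF+DEX against EGF, 2 for EGF+DEX against DEX and 6 for late against early times. At a fold minimum of 2 they were 1 for DEX and 0 for EGF+DEX and for late against early times. Times to 60 min alone gave 0 for DEX and 0 for EGF+DEX. Late against early times gave 0 with EGF only and 2 with DEX only. Exon use gave 24 members with no departure minimum, 0 at a minimum of 2 and 2 with the stricter background.

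The sign turned for LOX with EGF+DEX in the times to 60 min (-0.233), and for LAMB1 (-0.0676) and LAMB3 (0.0358) late against early times with EGF only. Leaving out each array in turn gave 0 to 0 calls for EGF, 2 to 3 for DEX, 1 to 3 for EGF+DEX, 0 to 1 for EGF+DEX against EGF, 0 to 0 against DEX, 1 to 1 for late against early times and 5 to 17 for exon use. A single call remained for EGF+DEX (LAMA5) without its array of 240 min, and LOX was called against EGF without any of 6 single arrays.

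Deviations of the replicates correlated by -0.20 to 0.31 between groups, and the correlation exceeded 0.1 in 12 of 45 pairs. Pairing by replicate number was thus neither shown nor excluded. With the replicate block, members called were 0 for EGF, 2 for DEX, 3 for EGF+DEX, 0 for EGF+DEX against EGF, 0 against DEX, 0 for late against early times and 7 for exon use. The causes were not tested. Brightness near the background limits the dim collagens, and single arrays limit every statement on 120 and 240 min.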
